A study of Drosophila melanogaster with 12 samples.

Results

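The levels of 9 glial genes were followed in fly heads: the glial transcription factor repo, the astrocyte gene alrm, the transporters Gat, Eaat1 and Mdr65, the enzyme Gs2, the sodium pump subunit nrv2, the barrier receptor moody and the engulfment receptor drpr. They were chosen by name, with earlier results of these data known. All 9 had a row among the 11236 genes of the deposited table. The libraries came from heads of Drosophila melanogaster populations that had been kept either monogamous or polygamous for 117 generations. The 4 groups were males and females from 3 monogamous populations and males and females from 3 polygamous populations, with 1 library per population and sex, 12 libraries in all. Before extraction every population, polygamous ones included, passed 1 generation in a common garden, and the flies were virgins held with their own sex and 4 days old. The sources used here give neither the base strain nor the number of heads in a library, so a library is a pool of unstated size and each p-value measures the spread between population libraries.

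Glia surround and insulate the neurons of the fly brain. Astrocyte-like glia take up the transmitters glutamate and GABA from the neuropil, and surface glia close the blood-brain barrier with septate junctions and efflux pumps. Ensheathing glia clear neuronal debris by engulfment. A whole head also holds eyes, muscle, fat body and blood cells, and in such bulk RNA fewer glial cells and less RNA per glial cell cannot be told apart.

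The deposited values are normalised read counts scaled to nearly equal library totals, called normalised counts here, and 10568 genes with a mean of 10 or more were tested. The reads behind them, recovered from the step between low values, ran from 34558521 to 52282995 per library. The library of monogamous female population 1 stood apart: it scored 82.6 on the first principal component, against -24.6 to 16.3 for the other 11, and its 10 measured neuron markers summed to 65599 normalised counts, against 235648 to 340440 in the other 11. Calls that change without this library, and differences that change sign or move by over 1.5 times, are given both ways.

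The glial genes spanned a wide range of levels. Per kilobase of exon, Gs2 was highest at 57713 normalised counts in monogamous males and 45518 in polygamous males, followed by Eaat1 at 11301 in monogamous males and 9255 in polygamous males and nrv2 at 8406 in monogamous males and 5858 in polygamous males. Next came alrm, Gat and drpr, then Mdr65, with repo and moody lowest at 1005 and 1004 in monogamous males and 939 and 854 in polygamous males. Neighbouring levels overlapped between libraries for alrm and Gat in 3 of the 4 groups, and for repo and moody in all groups but polygamous males. Together the 9 genes took 0.564%, 0.495% and 0.502% of all signal in monogamous males and 0.402%, 0.417% and 0.393% in polygamous males. In females the share was 0.342%, 0.335% and 0.332% under monogamy and 0.334%, 0.341% and 0.319% under polygamy, so the groups were separate in males and overlapped in females.

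**Figure D1:**
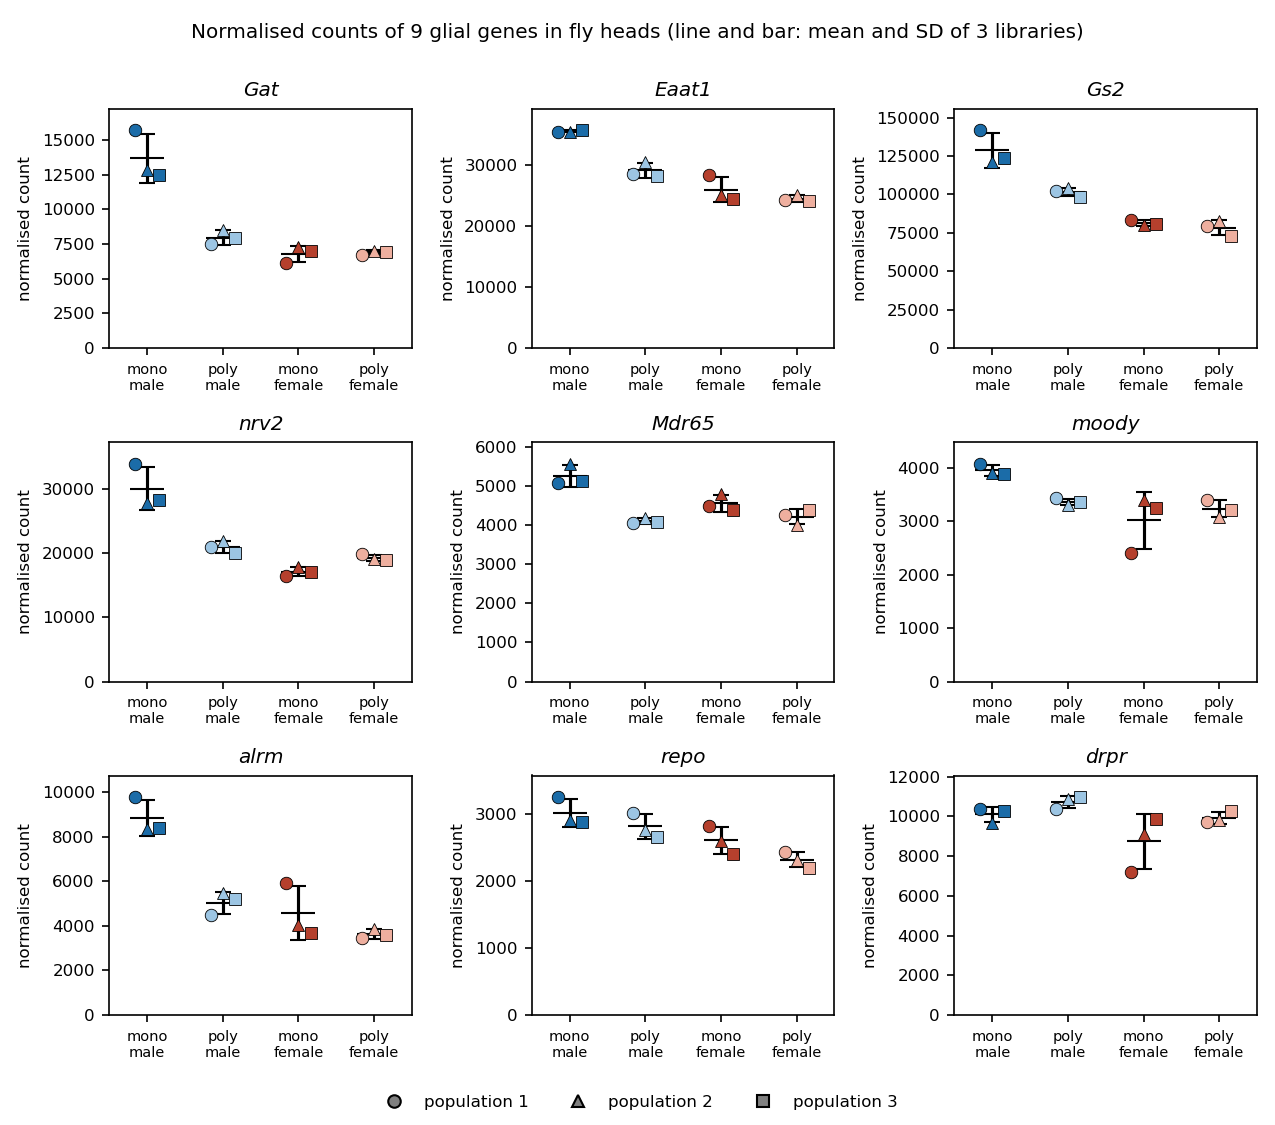
Normalised counts of the 9 glial genes (vertical axes, 1 panel per gene) in the 4 groups, with 1 point per population and the mean ± SD of 3 libraries. Gat, alrm, nrv2, Mdr65, moody, Eaat1 and Gs2 are higher in every monogamous male library than in any polygamous male library, while repo and drpr overlap.

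In males, 7 of the 9 genes were higher in every monogamous library than in any polygamous library, and 3 of them, Gat, nrv2 and Mdr65, passed the test (limma on log2(value + 1), Benjamini-Hochberg adjusted p under 0.05 over all genes tested). Over all genes, 13.7% were separate in that direction and 0.539% were called higher. The median log2 difference of the 9 genes was 0.34, against -0.02 over all genes, and 8 of 9 were positive. For the glial regulator repo and the engulfment receptor drpr the ranges of the groups overlapped, and neither passed the test.

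Gat, on chromosome 4 (FBgn0039915), encodes the plasma membrane GABA transporter of astrocyte-like glia. It had 15705, 12838 and 12479 normalised counts in monogamous males and 7468, 8523 and 7921 in polygamous males. Every monogamous value lay above every polygamous one, and the difference was 0.77 on the log2 scale (1.71-fold, SE 0.10, limma adjusted p = 0.0186). Eaat1, on 2L (FBgn0026439), is the high-affinity glutamate transporter of glia. Its normalised counts were 35361, 35428 and 35631 in monogamous males and 28534, 30482 and 28142 in polygamous males. The groups were separate, but the log2 difference of 0.29 (SE 0.08) did not pass (limma adjusted p = 0.159). Gs2, on X (FBgn0001145), is glutamine synthetase, which turns glutamate into glutamine. It had 141762, 120930 and 123580 normalised counts in monogamous males and 102314, 103974 and 98361 in polygamous males, again separate, with a log2 difference of 0.34 (SE 0.10) that did not pass (limma adjusted p = 0.197).

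The pump subunit nrv2, on 2L (FBgn0015777), is a beta subunit of the sodium-potassium ATPase that is used as a glial marker. It had 33869, 27817 and 28294 normalised counts in monogamous males and 20896, 21873 and 19938 in polygamous males. The groups were separate, and the log2 difference was 0.52 (1.43-fold, SE 0.09, limma adjusted p = 0.0392). Mdr65, on 3L (FBgn0004513), is an ATP-driven efflux pump of the blood-brain barrier. Its normalised counts were 5079, 5576 and 5127 in monogamous males and 4053, 4187 and 4079 in polygamous males. All monogamous values were higher, and the log2 difference was 0.36 (1.28-fold, SE 0.07, limma adjusted p = 0.0493). The G protein-coupled receptor moody, on X (FBgn0025631), is needed to seal the same barrier. It had 4077, 3897 and 3885 normalised counts in monogamous males and 3429, 3313 and 3352 in polygamous males, and these separate groups differed by 0.23 (log2, SE 0.11, limma adjusted p = 0.489), which did not pass.

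The astrocyte gene alrm, on 3R (FBgn0039332), encodes a leucine-rich repeat protein whose promoter is widely used to label astrocyte-like glia. It had 9771, 8359 and 8411 normalised counts in monogamous males and 4489, 5453 and 5188 in polygamous males. The groups were well separate and the log2 difference, 0.81 (SE 0.16), was the highest of the 9, yet it missed the threshold (limma adjusted p = 0.0542). The homeodomain factor repo, on 3R (FBgn0011701), is expressed in nearly all lateral glia. Its normalised counts were 3246, 2902 and 2884 in monogamous males and 3016, 2764 and 2655 in polygamous males, overlapping, with a log2 difference of 0.10 (SE 0.08, limma adjusted p = 0.770). The receptor drpr, on 3L (FBgn0027594), had 10388, 9674 and 10245 normalised counts in monogamous males and 10387, 10860 and 10956 in polygamous males, also overlapping (log2 difference -0.09, SE 0.11, limma adjusted p = 0.881). In the reference annotation exons of repo overlap CG7156 on the opposite strand, and exons of drpr overlap Oseg4 on the same strand. Whether counting used strand is not stated, so some reads of these genes cannot be told apart.

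The calls in males depended on which libraries were fitted, on the scaling and on the tool. Shares of all genes given for these alternative fits count calls in either direction, while the 0.539% above counts higher ones alone. Of 21 alternative fits, Gat was called in 16, nrv2 in 9 and Mdr65 in 7. Without the library of monogamous female population 1, which only adds to the shared spread, 7 of the 9 genes were called, against 8.15% of all genes. No glial gene was called without monogamous male population 1 or 2 or without any 1 of the polygamous male populations, and Gat alone was called without monogamous male population 3, without monogamous female population 2 or without any 1 polygamous female population. Without monogamous female population 3, Gat and alrm were called. Over all genes, the 12 fits with 1 library left out called 6 to 861 of 10568. Every one of the 9 log2 differences kept its sign in all of these fits. In a fit of the 6 male libraries alone, added after the data were seen, 6 were called: Gat, alrm, Mdr65, nrv2, Eaat1 and moody, against 4% of all genes. With library numbers as a replicate block, Gat and nrv2 were called and Mdr65 was not (0.956% of all genes). TMM scaling (a trimmed mean of log ratios between libraries) called 4 of the 9 (1.03% of all genes) and upper-quartile scaling called 1, Gat (0.341%). edgeR on the recovered reads called 4 (1.08%), DESeq2 called 6 (3.79%), and limma with library quality weights called 7 (17.2%).

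**Figure D2:**
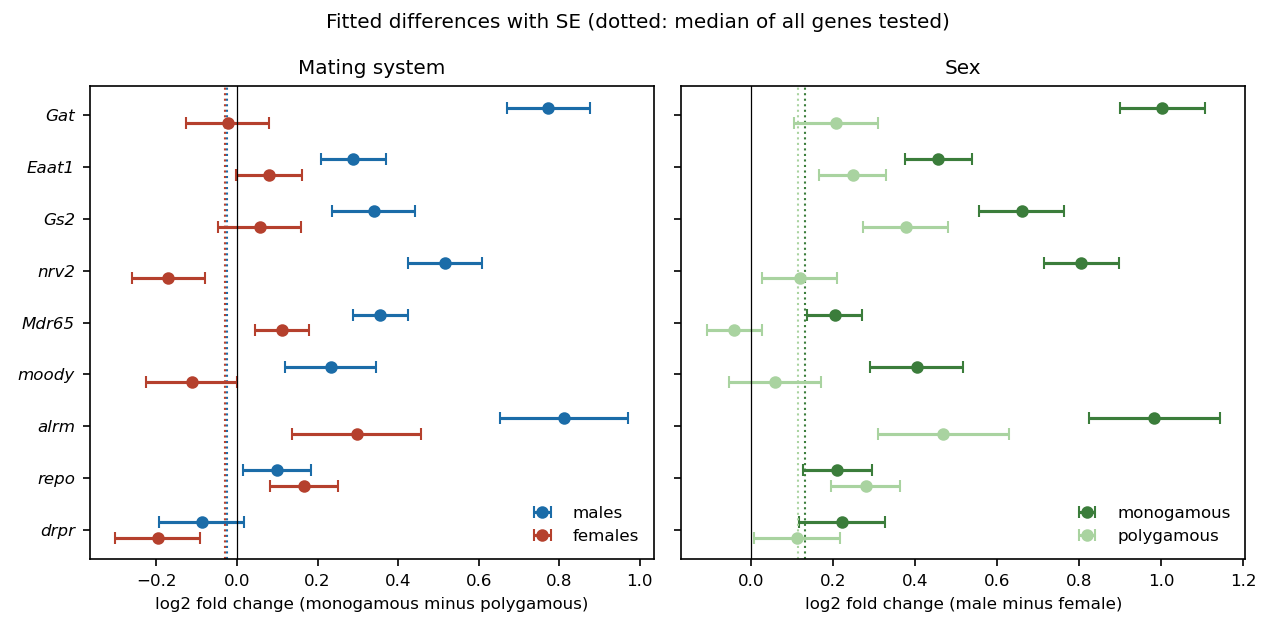
Log2 differences (horizontal axis) with their standard errors for each glial gene, monogamous minus polygamous in males and in females, and male minus female under monogamy and under polygamy, with dotted lines at the medians over all genes tested. The male differences of Gat, alrm and nrv2 reach 0.77, 0.81 and 0.52, while the female ones are -0.02, 0.30 and -0.17.

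In females no glial gene passed the test of mating system, nor did any of the 10568 genes (0%). At an unadjusted limma p under 0.05 there were 0 of the 9 glial genes and 1866 of all genes (17.7%). edgeR called 0 genes (0%), and DESeq2 called 270 genes (2.55%) and none of the 9. Mdr65 was the only glial gene higher in all monogamous females, at 4507, 4807 and 4383 normalised counts, against 4276, 4017 and 4381 in polygamous females (log2 difference 0.11, SE 0.07, limma adjusted p = 0.336); 8.9% of all genes were separate in that direction. nrv2 was lower in all monogamous females, at 16348, 17846 and 17108 normalised counts, against 19760, 19078 and 18887 in polygamous females (log2 difference -0.17, SE 0.09, limma adjusted p = 0.305), as were 14.7% of all genes. Gat overlapped, with 6153, 7289 and 6965 normalised counts in monogamous females and 6726, 7007 and 6958 in polygamous females, and its log2 difference of -0.02 changed sign with the scaling and without the library that stands apart.

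The other 6 glial genes overlapped between the female groups. The astrocyte gene alrm averaged 4562 ± 1207 normalised counts in monogamous females and 3636 ± 219 in polygamous females (SD, n = 3 each), and repo averaged 2603 ± 206 in monogamous females and 2315 ± 116 in polygamous females. Of the glutamate handling genes, Eaat1 averaged 25899 ± 2080 normalised counts in monogamous females and 24459 ± 551 in polygamous females, and Gs2 averaged 81271 ± 1760 in monogamous females and 78258 ± 4941 in polygamous females. The barrier receptor moody averaged 3021 ± 533 normalised counts in monogamous females and 3232 ± 159 in polygamous females, and drpr averaged 8732 ± 1375 in monogamous females and 9927 ± 305 in polygamous females. The SD under monogamy was the larger one for alrm, repo, Eaat1, moody and drpr, and the smaller one for Gs2.

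The library of monogamous female population 1 was outside the range of the other 5 female libraries for 8 of the 9 glial genes, in both directions. The share of all genes outside that range in this library was not measured, so the count cannot be read as a trait of the glial genes. moody had 2412 normalised counts there, against 3083 to 3401 in the others, and drpr had 7207, against 9114 to 10273. The astrocyte gene alrm had 5940, against 3446 to 4050, and repo had 2813, against 2199 to 2594. Eaat1 had 28281, against 24079 to 25091. Without this library the log2 difference in females was 0.09 instead of 0.30 for alrm, 0.04 instead of -0.11 for moody and 0.05 instead of -0.02 for Gat. It was -0.06 instead of -0.20 for drpr, 0.01 instead of 0.08 for Eaat1 and 0.11 instead of 0.17 for repo. The part of the low neuron markers of this library in these values was not tested.

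Averaged over the sexes of each population, 6 of the 9 genes were higher in all 3 monogamous populations than in any polygamous one, against 11.4% of all genes, and none passed the test. Among the 6 was nrv2 (log2 difference 0.17), which differed by 0.52 in males and by -0.17 in females. Gat differed by 0.77 in males and by -0.02 in females. The rest of the 6, alrm, Mdr65, Eaat1 and Gs2, had positive differences in both sexes. limma called 0 of 10568 genes (0%) on the 6 population means, edgeR called 0, and DESeq2 called 386 (3.65%), 6 of the glial genes among them. limma with library quality weights called 2 glial genes, Gat and alrm, and 5.15% of all genes. At an unadjusted limma p under 0.05 there were 5 glial genes and 1496 genes in all (14.2%). The median log2 difference of the 9 was 0.18, against -0.03 over all genes. alrm had the highest value, 0.55 (SE 0.13, limma adjusted p = 0.276), followed by Gat at 0.37 (SE 0.06, limma adjusted p = 0.248) and Mdr65 at 0.23 (SE 0.06, limma adjusted p = 0.305). Without monogamous population 1, to which the library that stands apart belongs, limma still called no gene; moody then had 0.13 instead of 0.06, repo 0.08 instead of 0.13 and drpr -0.09 instead of -0.14.

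Heads of males had more RNA of 6 of the 9 glial genes than heads of females (limma adjusted p under 0.05). Over all genes, 20.2% were called higher in males and 9.27% lower. alrm differed by 0.73 on the log2 scale (SE 0.11, limma adjusted p = 0.00132), Gat by 0.60 (limma adjusted p = 0.000313) and Gs2 by 0.52 (limma adjusted p = 0.000772). nrv2 followed at 0.46, Eaat1 at 0.35 and repo at 0.25 (limma adjusted p = 0.000713, 0.00167 and 0.0121). For Gat, nrv2 and Gs2 all 6 male libraries lay above all 6 female libraries, as did 15.2% of all genes. The median over all genes was itself 0.13 in these values, and rescaling by TMM brought it to 0.01. Under TMM, Gat, alrm, Gs2, nrv2 and Eaat1 were called (22.4% of all genes in either direction). There repo was not called (limma adjusted p = 0.14), and the log2 difference of Mdr65 was -0.03 in place of 0.08. Under upper-quartile scaling 4 were called, without Eaat1 and repo (17.2% of all genes in either direction). moody (0.23) and drpr (0.17) did not pass, but both did without the library that stands apart (log2 differences of 0.15 and 0.10, limma adjusted p = 0.00348 and 0.0342). In that fit 51.7% of all genes were called in either direction. Fat body markers summed to 118228 to 172063 normalised counts in males and 637881 to 1256251 in females, and neuron markers to 305970 to 340440 in males and 65599 to 291487 in females. The fat body difference was carried by the yolk protein gene Yp1 (log2 difference -8.66, male minus female) and by fit, both called lower in males; to was called higher in males (0.42), and Lsp2, apolpp, Fbp1 and Lsp1beta were not called. The part of fat body and neurons in the glial sex differences was not tested.

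The sex difference was then taken within each mating system. For Gat it was 1.00 on the log2 scale under monogamy and 0.21 under polygamy, for nrv2 it was 0.81 under monogamy and 0.12 under polygamy, and for alrm it was 0.98 under monogamy and 0.47 under polygamy. Neuron marker sums in females were 65599 to 246631 normalised counts under monogamy and 254190 to 291487 under polygamy, separate even though in males they overlapped, and their part was not tested. The test of the difference of these differences called no gene with limma (0 of 10568, 0%) and none with edgeR, and 63 (0.596%) with DESeq2. Gat (0.80, SE 0.15) and nrv2 (0.69, SE 0.13) each had a limma adjusted p of 0.143, and both were called by DESeq2 (adjusted p = 0.00135 for Gat and 0.000307 for nrv2). limma with library quality weights called Gat, nrv2 and alrm (0.766% of all genes). Without monogamous female population 1 no glial gene was called by limma (adjusted p = 0.0721 for Gat and 0.0662 for nrv2), and the value of moody was 0.19 instead of 0.34, that of drpr -0.02 instead of 0.11 and that of repo -0.01 instead of -0.07. Of the 9 values 8 were positive, with a median of 0.28 against 0.01 over all genes, and 4 of the 9 and 576 of all genes (5.45%) had an unadjusted limma p under 0.05.

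Set against repo within the same library, 5 of the other 8 genes separated the mating systems in males. The share of all genes that separate when set against repo was not measured, so this count has no background to be read against. Gat stood at 4.84, 4.42 and 4.33 times repo in monogamous males and 2.48, 3.08 and 2.98 times in polygamous males, a 1.60-fold difference in the ratio. alrm stood at 3.01, 2.88 and 2.92 times repo in monogamous males and 1.49, 1.97 and 1.95 times in polygamous males, a 1.64-fold difference, and nrv2 (1.34-fold), Mdr65 (1.20-fold) and Gs2 (1.18-fold) were separate too. Ratios of moody, Eaat1 and drpr overlapped. In females nrv2 was separate in the opposite direction, at 5.81, 6.88 and 7.13 times repo under monogamy and 8.13, 8.24 and 8.59 times under polygamy. Each separate ratio had a two-sided exact permutation p of 0.1, the smallest that 3 against 3 libraries can give, and none of the 16 ratios tested passed Benjamini-Hochberg adjustment (lowest adjusted p of the exact tests 0.267).

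**Figure D3:**
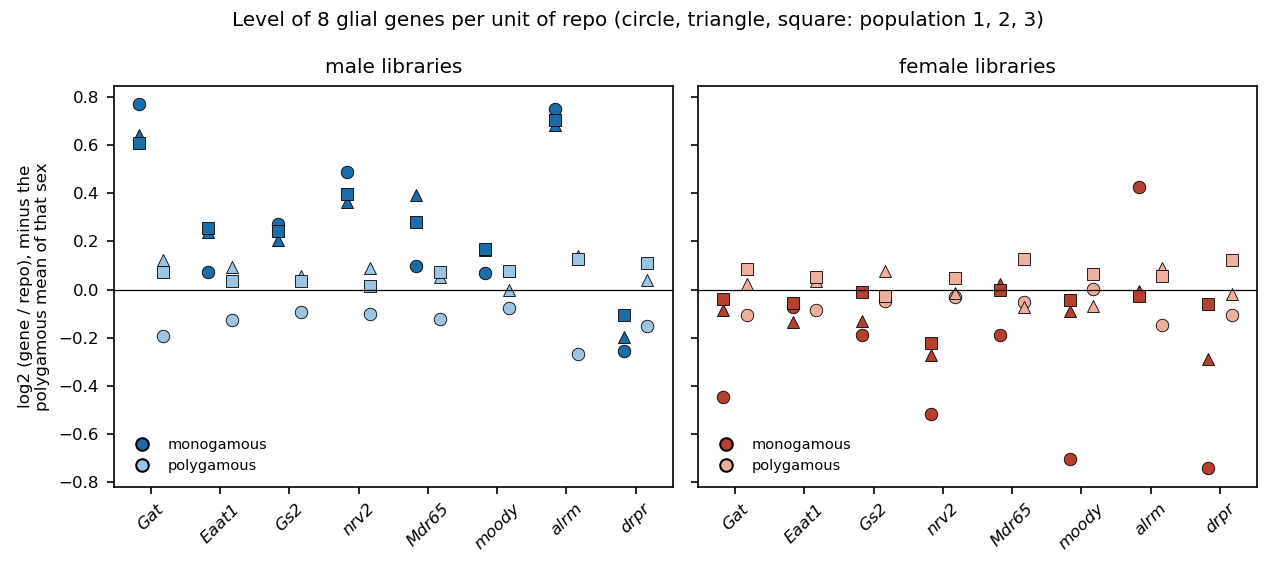
Log2 ratio of each glial gene to repo in the same library, minus the mean of the polygamous libraries of that sex (vertical axis), for males and for females with 1 point per population. In males the ratios of Gat, alrm, nrv2, Mdr65 and Gs2 are separate between mating systems, and in females that of nrv2 is, in the opposite direction.

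The pattern of Gat over the 12 libraries was most like that of CG4829 (Pearson r = 0.979), nrv2 (0.974) and Ugt301D1 (0.972), and without the library that stands apart, over 11 libraries, like scaf (0.983), Chc (0.982) and bdl (0.982). For nrv2 the most like were Gat (0.974), CG4829 (0.967) and egr (0.959) over 12 libraries and Oatp58Dc (0.977), CG7888 (0.974) and Gat (0.971) over 11. For Mdr65 they were prc (0.962), Cyp318a1 (0.923) and NimC1 (0.92) over 12 libraries and prc (0.963), CG5921 (0.952) and CG7299 (0.948) over 11. All these values share libraries and depth, so they are descriptions only.

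Among related genes, calls between mating systems were few, as they were over all genes. In males, 0.539% of all genes were called higher under monogamy. Of 15 tested genes of glial subtypes and fate, 1 was called higher in monogamous males: e, which encodes the enzyme that couples beta-alanine to dopamine and histamine, had 5214, 3942 and 4468 normalised counts in monogamous males and 1890, 2205 and 1493 in polygamous males (log2 difference 1.29, SE 0.17, limma adjusted p = 0.0186). The call of e was lost without monogamous male population 1 or 3 or polygamous male population 1 or 3 (limma adjusted p = 0.0541 to 0.0917). CG9657 (0.72) and wun2 (0.63) did not pass (limma adjusted p = 0.0738 and 0.0525), and the median of this list was 0.20. Without monogamous female population 1, 5 genes of this list were called, where 8.15% of all genes were in either direction. None of 16 septate junction genes was called, with a median of 0.03; Gli, an adhesion protein of glia, had 0.43 (limma adjusted p = 0.194), Lac had 0.19 and Tsf2 had 0.16. Without monogamous female population 1, 2 septate junction genes were called. None of 11 relatives of the 9 genes was called, with a median of 0.12, including SerT (-0.24), ine (0.19) and DAT (0.18).

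Genes that act with the 9 gave no call in males. With 0.539% of all genes called higher there, lists this small without a call are not set apart from all genes. None of the 6 genes of moody signalling was called (median 0.07), with Galphai, a G protein subunit, at 0.16. None of 16 genes of glutamate and GABA handling was called (median 0.03), among them Gabat, the GABA-degrading transaminase, at 0.30 (limma adjusted p = 0.166), the receptor subunit gene Grd at 0.42 (0.107) and Gdh at 0.25 (0.351). None of 14 engulfment genes was called (median 0.07), with NimC4, an engulfment receptor, at 1.26 (limma adjusted p = 0.0668), Traf4 at 0.22 and ced-6 at 0.19. Without monogamous female population 1, 2 glutamate and GABA genes and 2 engulfment genes were called, against 8.15% of all genes in either direction, and no gene of moody signalling. In females, over population means and for the interaction, limma called 0 genes of these lists and 0% of all genes.

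**Figure D4:**
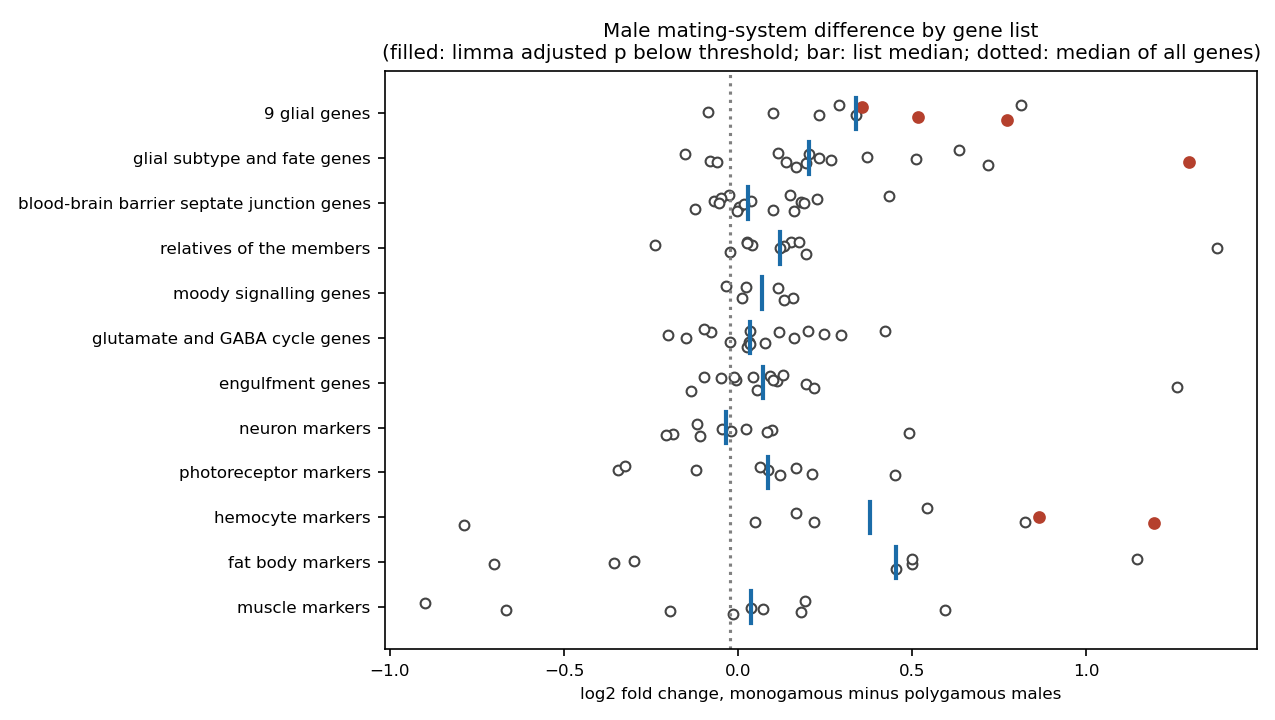
Log2 difference in males, monogamous minus polygamous (horizontal axis), for each gene listed. Rows are the 9 glial genes, 6 lists of related genes and the marker lists of other head cells. Filled points are called genes, a bar marks each list median and a dotted line the median of all genes. Gat, nrv2 and Mdr65 are filled among the 9, e among the glial subtype genes, and NimC1 and Hml among the hemocyte markers. No point of the other lists is filled.

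Between the sexes more of these related genes were called, where 20.2% of all genes were called higher in males and 9.27% lower. Of the glutamate and GABA genes 10 were higher in males and 1 lower, with a median of 0.41 against 0.13 over all genes, and the smallest p-values were those of Gabat at 0.55 (limma adjusted p = 0.00018) and VGAT, the vesicular GABA transporter, at 0.46. Of the septate junction genes 8 were higher and 1 lower (median 0.16), with Nrx-IV at 0.42 and Cont at 0.27. Of the glial subtype genes 5 were higher and 1 lower (median 0.29), with CG9657 at 0.73 and the trehalose transporter Tret1-1 at -0.49. Relatives of the 9 had 4 higher and 1 lower (median 0.17), with the smallest p-values for Mdr49 at 0.62 (limma adjusted p = 0.00056) and DAT at 0.35. The list of relatives shares genes with the glutamate and GABA list, among them a gene called higher and the gene called lower. Moody signalling had 2 higher, Galphai and Ggamma1, and engulfment had 2 higher, Ced-12 and bsk. These counts moved with the scaling and with single libraries. The counts and shares of called genes that follow are for either direction. Under TMM 6 glutamate and GABA genes, 1 septate junction gene, 4 glial subtype genes, 3 relatives, 1 moody signalling gene and 2 engulfment genes were called, where 22.4% of all genes were. Leaving out 1 library at a time gave 7 to 16 glutamate and GABA genes, 2 to 10 septate junction genes, 4 to 12 glial subtype genes, 2 to 10 relatives, 1 to 5 moody signalling genes and 2 to 8 engulfment genes, each highest without monogamous female population 1, where 51.7% of all genes were called. Over all genes, leaving out 1 library gave 2363 to 5460 called of 10568.

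Markers of other head cells were measured beside these genes. In males the 10 measured neuron markers summed to 305970 to 322162 normalised counts under monogamy and 306521 to 340440 under polygamy, overlapping, with none called. The 9 photoreceptor markers summed to 3589698 to 3886183 normalised counts in monogamous males and 4178247 to 4512007 in polygamous males, lower in every monogamous library, and none was called alone. That sum was carried by a few abundant genes: ninaE (log2 difference -0.35), Arr1 (-0.32) and Arr2 (-0.12) were negative, while the other 6, trp (0.45) among them, were positive. The 8 hemocyte markers summed to 21911 to 24168 normalised counts in monogamous males and 19937 to 20543 in polygamous males, higher in every monogamous library. Of these, 2 were called higher, NimC1 (log2 difference 1.19) and Hml (0.86), against 0.539% of all genes. The log2 difference was positive for 7 of the 8, while PPO2 went the other way at -0.79 (limma adjusted p = 0.237). NimC1 was called with any 1 library left out, while Hml was not without any 1 male library, nor without monogamous female population 3 or polygamous female population 1 or 2. Fat body and muscle sums overlapped, with no gene called. Median log2 differences in males were 0.38 for hemocyte, 0.45 for fat body, 0.09 for photoreceptor, 0.04 for muscle and -0.03 for neuron markers. The median of the 9 glial genes was 0.34. No measured marker was at 0, and the part of hemocytes and photoreceptors in the glial differences was not tested.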

How the data were processed

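RNAzol extracts of heads were sequenced from Illumina mRNA-Seq kit libraries, per the labels' protocols. Per the submitters' processing notes, TopHat2, HTSeq, DESeq2 and build BDGP5 were used; the sources used here give no versions and do not say whether counting used strand. The deposited signal is a normalised read count per gene that the authors scaled by 1 factor per library to nearly equal totals, as the values show. Low values step in whole reads: 100% of values were whole at a tolerance of 0.1 reads, and the reads recovered from these steps set the depth given in the results.

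A pseudocount of 1 was added before taking log2, and a gene was kept if its mean value was at least 10. limma 3.58.1 (R 4.3.3, trend) was fitted with 1 mean per group over the 12 libraries, or on the mean of the sexes of each of the 6 populations, with Benjamini-Hochberg adjustment over all genes. Differences are monogamous minus polygamous and male minus female. Fold changes on this scale understate low genes. The alternatives were a pseudocount of 10, no filter, TMM and upper-quartile scaling, library quality weights, a replicate block, each library left out, and edgeR 4.0.16 and DESeq2 1.42.0 on the recovered reads. Fits of the male or the female libraries alone were added after the data were seen. The fits were tested on simulated data.

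Genes named were all 9 members, the 3 genes most like each called member, and of each list up to 3 with the smallest p in the male comparison and up to 2 in the sex comparison. NimC1, Hml, PPO2 and the photoreceptor and fat body markers named in the text fall outside this rule and were named after their values were seen. Members and lists were chosen with earlier results of these data known. By the labels, a number joins the male and female library of 1 population, whose deviations from group means correlated at 0.0908 to 0.474. Across mating systems the labels state no link between libraries of the same number, whose deviations correlated at -0.124 to 0.146. A reference table gave symbols for 10782 identifiers and none for 454. Its gene models follow a later build, so no coordinates are given.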

Additional observations from a re-analysis of the deposited data

Results flagged for a closer look

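The pump subunit gene nrv2 was higher in every monogamous than every polygamous male library and lower in every monogamous than every polygamous female library. The difference of these differences was 0.687 on the log2 scale (SE 0.13), and limma did not call it (adjusted p = 0.143). Over all genes, 91 of 10568 (0.861%) were separate in opposite directions in the sexes.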

How the results depend on the processing

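With 3 libraries a group, single libraries decided many calls, and the number of heads behind a library is unknown. Of the values of single glial genes under the alternatives, 775 kept their direction and side of the threshold, 38 passed only under the alternative, 36 passed only in the values reported, and 15 changed sign. Causes of these changes were not tested.

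In males 68 genes were called, against 400 by DESeq2, 114 by edgeR, 109 under TMM, 36 under upper-quartile scaling, 1813 with library quality weights and 423 in the male libraries alone. The glial genes called, 3 of 9, were 6 by DESeq2, 1 under upper-quartile scaling, 7 with weights and 6 in males alone. Leaving out 1 library gave 6 to 861 genes and 0 to 7 glial genes. In females, where limma called 0, DESeq2 called 270 and weights 219. Over population means DESeq2 called 386 genes and 6 glial genes, and weights 544 and 2. For the interaction DESeq2 called 63 genes and 2 glial genes, weights 81 and 3, and leaving out 1 library gave 0 to 9 genes. Between the sexes 3119 genes were called, 2139 of them higher in males, against 2362 with 838 higher under TMM, 1814 with 528 higher under upper-quartile scaling and 6178 with weights; leaving out 1 library gave 2363 to 5460. The fit of the weights warned of incomplete convergence.

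With the replicate block 101 genes were called in males, 2 of them glial, 1 gene in females, 9 for the interaction and 3138 between the sexes. Within a sex and over population means the block was the library number, which the labels do not link across mating systems. For sex and the interaction it was the population, which pairs a male with a female library. The sex and interaction values in the results did not use that pairing. In males Gat (adjusted p = 0.0266) and nrv2 (adjusted p = 0.047) passed in limma with the block and Mdr65 did not. The block changed no other call of a glial gene.

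Sign changes came in small log2 differences. In females that of Gat was 0.0029 by DESeq2, 0.0014 under TMM, 0.0265 with weights and 0.0577 under upper-quartile scaling, and -0.075 to 0.0472 with 1 library left out. That of moody in females was 0.0513 with weights and -0.2062 to 0.0417 with 1 library left out, and that of Eaat1 was -0.0036 with weights. The interaction of repo was 0.0012 with weights, and that of drpr was -0.0881 with weights and -0.023 to 0.2043 with 1 library left out. The sex difference of Mdr65 was -0.0159 by DESeq2, -0.0315 under TMM, -0.0299 by edgeR and -0.0669 under upper-quartile scaling.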
